A study of Mus musculus with 6 samples.

Results

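The 10 genes described here are direct transcriptional targets of p53 that are known for cell cycle arrest, apoptosis, stress metabolism and feedback on p53 itself: Cdkn1a, Mdm2, Btg2, Trp53inp1, Bax, Bbc3, Ccng1, Sesn2, Phlda3 and Gdf15. They were taken by gene name from the 51826 gene rows of the count table, where each name matched 1 row, and all 10 passed the filter on low counts. The samples were cortices of male BALB/c mice aged 6 to 8 weeks, taken on day 3 after the whole brain had received a single 10 Gy dose of X-rays. Of these, 3 carried both Lgmn alleles (Lgmn+/+-IR, replicates 1 to 3) and 3 were Lgmn knockouts (Lgmn-/--IR, replicates 1 to 3), with 1 polyA RNA library per sample. Lgmn encodes asparagine endopeptidase (legumain), a lysosomal cysteine protease. The Lgmn-/- mice were Lgmn flox/flox: Cre+ animals that go back to a targeted ES cell clone and to matings with Flp and then Cre mice. The Cre driver, and whether the Lgmn+/+ mice carried Cre or Flp, are not given in the sources used here. No library from a mouse without irradiation was analysed here, so every difference is between genotypes after irradiation, and none is the response to irradiation. Replicates are labelled as separate samples of a genotype, and p-values measure the spread between these samples only.

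After DNA damage the kinases ATM, ATR, CHK1 and CHK2 phosphorylate p53 and loosen its hold by the ubiquitin ligase MDM2, and p53 then binds response elements near its target genes as a tetramer. Some targets stop the cell cycle, some open the mitochondrial route to apoptosis, some manage redox and nutrient stress, and MDM2 closes the loop by marking p53 for degradation. In the irradiated brain this response is known for the death of progenitors and young oligodendrocytes soon after exposure, and for p21, the product of Cdkn1a, as a mark of senescent cells.

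Between genotypes, Btg2 and Trp53inp1 were lower in the Lgmn-/--IR cortex, by 48.4% and 37.6%, and these were the members that passed an adjusted p of 0.05 (the quasi-likelihood test of edgeR, adjusted by Benjamini-Hochberg over 18345 genes, which is behind every adjusted p here unless another is named). Phlda3 was 26.6% lower at an adjusted p of 0.120. The arrest gene Cdkn1a, the feedback gene Mdm2, and Ccng1 and Bbc3 differed by at most 5.93% between the group means. Of the other 32 p53 targets on a list of textbook targets, Pmaip1 and Steap3 were higher and Xpc was lower in Lgmn-/--IR. Across all genes tested, 3.33% passed the threshold in either direction and 1.68% passed it as lower in Lgmn-/--IR, and 2 of 10 members did so as lower and 0 of 10 as higher.

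The sequence before the start of 5 members is shown. Cdkn1a, Mdm2, Ccng1 and Bax hold a p53 half-site there, and Btg2 holds the letters of a cyclic AMP response element. Bbc3, Sesn2, Phlda3 and Gdf15 held neither in their windows, and Trp53inp1 had no window. Of the members with a window, only Btg2 passed the test between genotypes, so members with a half-site and members with neither did not pass alike. Each run gives the 250 bases before a RefSeq start of the gene, 5′ to 3′ on the gene's own strand. For Cdkn1a this is the first annotated start, and the window of a later start (chr17:29093519-29093818) held 0 half-sites and is not shown. Capitals mark exact matches to the p53 consensus half-site in Cdkn1a, Mdm2, Ccng1 and Bax, and the letters TGACGTCA in Btg2.
Cdkn1a (GRCm38.p6, chr17:29090729-29090978, plus strand): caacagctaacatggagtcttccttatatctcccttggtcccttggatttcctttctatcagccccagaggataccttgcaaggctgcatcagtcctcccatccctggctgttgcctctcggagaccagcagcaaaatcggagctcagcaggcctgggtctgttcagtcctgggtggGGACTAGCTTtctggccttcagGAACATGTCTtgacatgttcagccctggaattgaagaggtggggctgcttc
Mdm2 (GRCm38.p6, chr10:117710759-117711008, minus strand): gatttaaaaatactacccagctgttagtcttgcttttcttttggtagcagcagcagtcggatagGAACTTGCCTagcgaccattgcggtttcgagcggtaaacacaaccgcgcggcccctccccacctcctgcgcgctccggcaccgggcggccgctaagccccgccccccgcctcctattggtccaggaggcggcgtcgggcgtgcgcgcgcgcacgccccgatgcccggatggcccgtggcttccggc
Ccng1 (GRCm38.p6, chr11:40755287-40755536, minus strand): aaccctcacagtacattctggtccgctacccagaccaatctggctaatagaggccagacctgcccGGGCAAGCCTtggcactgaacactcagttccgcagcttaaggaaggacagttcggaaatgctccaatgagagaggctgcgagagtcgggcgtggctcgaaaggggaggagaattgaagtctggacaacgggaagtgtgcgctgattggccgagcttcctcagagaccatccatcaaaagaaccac
Bax (GRCm38.p6, chr7:45466899-45467148, minus strand): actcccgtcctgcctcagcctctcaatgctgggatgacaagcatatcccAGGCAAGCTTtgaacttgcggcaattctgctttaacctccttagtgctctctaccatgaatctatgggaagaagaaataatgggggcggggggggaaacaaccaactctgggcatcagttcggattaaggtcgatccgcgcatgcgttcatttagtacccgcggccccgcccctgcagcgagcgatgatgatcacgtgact
Btg2 (GRCm38.p6, chr1:134079156-134079405, minus strand): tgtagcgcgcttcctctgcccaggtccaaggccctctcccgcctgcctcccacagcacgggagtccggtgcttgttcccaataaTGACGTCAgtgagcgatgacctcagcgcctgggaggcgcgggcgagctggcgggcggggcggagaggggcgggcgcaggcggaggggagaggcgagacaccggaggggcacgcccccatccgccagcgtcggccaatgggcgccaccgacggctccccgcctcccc

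In windows from 250 bases before to 50 bases after the start, RefSeq sequences on GRCm38.p6 were found for 9 of the 10 members, 13 windows in all. None was given for Trp53inp1. The p53 consensus half-site reads the same pattern on both strands, so 1 search covered both, and it was present in 4 of the 9 members, beside 9.55% of all 27025 genes and 8.36% of all 32851 windows. Cdkn1a held a pair of exact matches, beginning 73 and 51 bases upstream of its first annotated start. A pair at most 13 bases apart was found in 24 of all windows (0.073%). The search allowed no mismatch. In Cdkn1a the letters tgacatgttc directly follow the second match without a spacer, differ from the consensus in their first letter and were not counted. Which of these form a full response element was not tested. The half-sites of Mdm2, Ccng1 and Bax began 186, 185 and 201 bases upstream. TGACGTCA, a palindrome that is likewise searched on both strands at once and does not overlap the half-site pattern here, began 166 bases upstream of the Btg2 start. Btg2 was the member that held it, and 1.79% of all windows did. A match of letters is a description of these windows and does not show binding, and response elements outside them were not searched.

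In the GENCODE M21 annotation of GRCm38, Btg2 occupies chr1:134075170-134079120 on the minus strand and Phlda3 chr1:135766119-135769136 on the plus strand, 1.69 Mb apart, and Trp53inp1 occupies chr4:11156431-11174379 on the plus strand. Cdkn1a is at chr17:29090976-29100727 (plus), Mdm2 at chr10:117688875-117710758 (minus), Ccng1 at chr11:40748552-40755311 (minus), Sesn2 at chr4:132492032-132510501 (minus), Bbc3 at chr7:16308393-16318205 (plus), Bax at chr7:45461697-45466898 (minus) and Gdf15 at chr8:70629393-70632456 (minus). All are protein coding, and no member had a near-identical copy among annotated transcripts. Bax overlaps Gm45808 on the same strand, which held 2 to 9 counts per library against 1395 to 2062 for Bax, and Sesn2 overlaps Gm12981 with 0 to 3 counts. Cdkn1a overlaps AC167363.2 on the opposite strand, and since the use of strand in counting is not given in the sources used here, reads of this pair cannot be told apart.

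Total counts ranged from 41874462 to 46829441 per library. Lgmn, the check of the labels, was counted at 130, 129 and 127 CPM (the count scaled to a common library size with TMM factors) in Lgmn+/+-IR and at 83.4, 70.4 and 93.6 CPM in Lgmn-/--IR. It was lower in all 3 Lgmn-/--IR libraries but far from absent (log2 fold change -0.64, SE 0.12, adjusted p = 0.0315). Leaving out 1 library at a time raised the adjusted p of Lgmn above 0.05 for Lgmn+/+-IR replicates 1, 2 and 3 and Lgmn-/--IR replicate 1 (0.103, 0.131, 0.104 and 0.0949). Hemoglobin and Alas2, summed over 5 blood genes, stood at 7.59 to 15.8 CPM in Lgmn+/+-IR and at 2273, 1728 and 234 CPM in Lgmn-/--IR replicates 1, 2 and 3, and all 5 genes were higher in Lgmn-/--IR. Mitochondrial genes took 5.68% of the counts in Lgmn-/--IR replicate 2 and 8.03 to 9.43% in the other libraries. The 9 neuronal markers were present in every library and summed to 7911 to 10051 CPM, and 4 striatal markers, which a cortical dissection would be low in, summed to 266, 575 and 929 CPM in Lgmn+/+-IR and 966, 184 and 213 CPM in Lgmn-/--IR.

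Levels were first compared between genes on the FPKM scale, which divides by transcript length. In Lgmn+/+-IR the order ran from Bax (37.0 ± 5.87 FPKM, mean ± SD, n = 3), Cdkn1a (37.0 ± 3.49) and Phlda3 (35.5 ± 2.71), whose libraries overlapped one another, through Ccng1 (29.4 ± 1.16), Btg2 (15.1 ± 0.52), Mdm2 (12.6 ± 1.19) and Bbc3 (10.1 ± 1.17) to Sesn2 (6.98 ± 0.17), Trp53inp1 (4.23 ± 0.21) and Gdf15 (0.372 ± 0.028). From Phlda3 downward no library of a gene reached the libraries of the next. Bax, Cdkn1a and Phlda3 thus led together, and Gdf15, a secreted stress cytokine of the TGF-beta family, came last with 18 to 32 counts per library. In Lgmn-/--IR the first places were Cdkn1a at 35.9 FPKM, Bax at 30.6, Ccng1 at 28.0 and Phlda3 at 25.4. Btg2 stood at 7.59 FPKM, which moved it from the fifth place to the seventh, below Mdm2 at 11.8 and Bbc3 at 9.0. On this scale the Lgmn-/--IR libraries lay below all Lgmn+/+-IR libraries for Btg2, Trp53inp1, Phlda3, Gdf15 and also Sesn2.

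**Figure D1:**
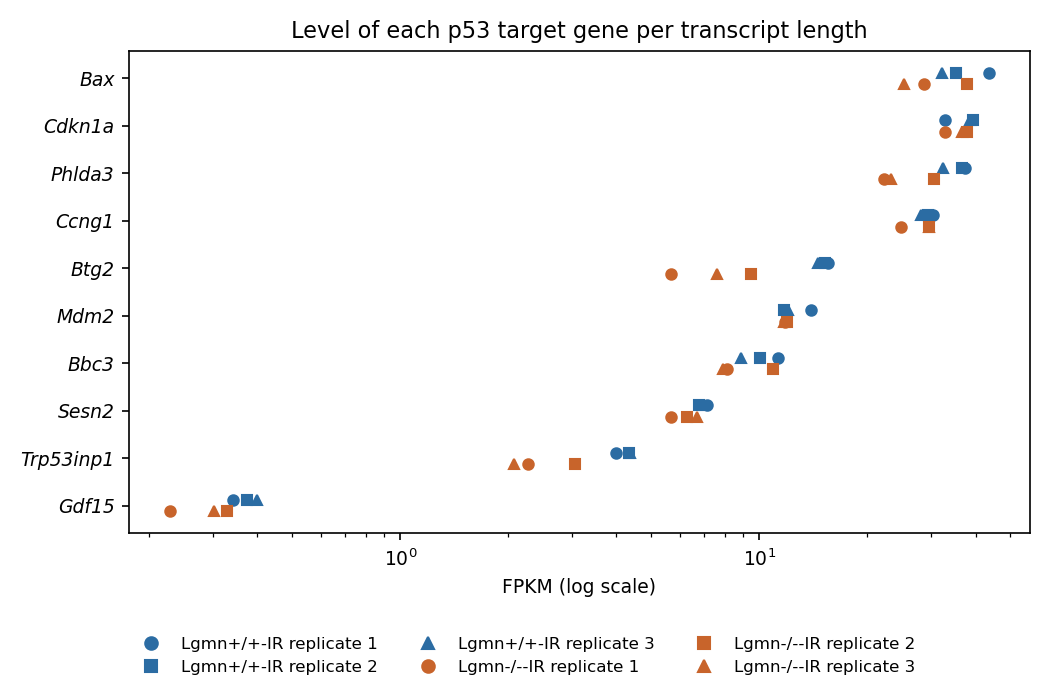
FPKM (log axis) of each p53 target gene, 1 point per library, with Lgmn+/+-IR in blue above Lgmn-/--IR in orange and marker shapes for replicates 1, 2 and 3. Genes are ordered by their Lgmn+/+-IR mean, from Bax at 37.0 to Gdf15 at 0.372, and the orange points of Btg2 and Trp53inp1 lie left of all their blue points.

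Among the cell cycle arrest genes, Btg2 was called and Cdkn1a and Ccng1 were not. BTG2 belongs to the BTG/TOB family of antiproliferative proteins, binds the CCR4-NOT deadenylase and is also an immediate early gene of neurons. Btg2 was at 47.8, 46.3 and 45.1 CPM in Lgmn+/+-IR replicates 1 to 3 and at 17.9, 28.7 and 25.4 CPM in Lgmn-/--IR replicates 1 to 3. The 3 Lgmn+/+-IR libraries lay within a few CPM of each other, and every Lgmn-/--IR library was below them, replicate 1 the furthest. The means were 46.4 ± 1.34 and 24.0 ± 5.53 CPM (SD, n = 3), a log2 fold change of -0.95 (SE 0.17, 95% CI -1.36 to -0.55, adjusted p = 0.0313). The difference stayed under the 2-fold mark in the combined call (adjusted p under 0.05 with an absolute log2 fold change over 1), which 2.06% of all genes and 0 members passed. The call was lost on leaving out Lgmn+/+-IR replicate 1, 2 or 3 or Lgmn-/--IR replicate 3 (adjusted p = 0.0958, 0.119, 0.0981 and 0.103), while the log2 fold change stayed between -1.10 and -0.78 in all 18 alternatives.

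Cdkn1a encodes p21, an inhibitor of cyclin-dependent kinases and the best known arrest target of p53. It was counted at 67.0, 78.2 and 77.4 CPM in Lgmn+/+-IR and at 68.3, 75.9 and 81.6 CPM in Lgmn-/--IR. The groups overlapped throughout, and in both the lowest library was replicate 1. The log2 fold change was 0.02 (SE 0.11, adjusted p = 0.937), and its 95% CI from -0.23 to 0.27 runs from a fold of 0.851 to a fold of 1.21. Its sign turned under limma on FPKM (-0.0414 at a pseudocount of 1). Ccng1, which encodes cyclin G1, a partner of phosphatase 2A, was the most heavily counted member by CPM, with 119.9, 115 and 112 CPM in Lgmn+/+-IR and 99.9, 114 and 127 CPM in Lgmn-/--IR. Its Lgmn-/--IR libraries spanned the Lgmn+/+-IR ones on both sides (log2 fold change -0.02, 95% CI -0.27 to 0.23, adjusted p = 0.929).

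For feedback on p53, Mdm2 was counted at 31.0, 27.6 and 28.2 CPM in Lgmn+/+-IR and at 29.0, 31.6 and 31.3 CPM in Lgmn-/--IR. The groups overlapped, since Lgmn+/+-IR replicate 1 lay above the lowest Lgmn-/--IR library. Its log2 fold change of 0.08 (SE 0.09, 95% CI -0.14 to 0.30, adjusted p = 0.686) became -0.08 on the FPKM scale. TP53INP1 promotes autophagy and p53-dependent cell death as a nuclear partner of p53. Trp53inp1 was at 22.4, 23.7 and 25.7 CPM in Lgmn+/+-IR and at 13.9, 17.7 and 13.2 CPM in Lgmn-/--IR. All Lgmn-/--IR libraries were below all Lgmn+/+-IR libraries, and replicate 2 came nearest to them. The means of 23.9 ± 1.65 and 14.9 ± 2.42 CPM gave a log2 fold change of -0.68 (SE 0.14, 95% CI -1.01 to -0.36, adjusted p = 0.0493), which sits at the threshold. It passed the threshold in 4 of 18 alternatives, with log2 fold changes from -0.85 to -0.60, and leaving out Lgmn+/+-IR replicate 1, 2 or 3 or Lgmn-/--IR replicate 1 or 3 gave adjusted p = 0.0959, 0.167, 0.160, 0.140 and 0.153.

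Among the members that act in apoptosis, PHLDA3 holds back AKT by binding the membrane lipids that AKT needs. Phlda3 was counted at 60.0, 58.4 and 52.7 CPM in Lgmn+/+-IR and at 36.6, 48.4 and 40.5 CPM in Lgmn-/--IR. The groups did not overlap, although Lgmn-/--IR replicate 2 came close to Lgmn+/+-IR replicate 3. With a log2 fold change of -0.45 (SE 0.13, 95% CI -0.74 to -0.15), an unadjusted p of 0.00900 and an adjusted p of 0.120, it did not pass over all genes, and its lowest adjusted p over the 18 alternatives was 0.0596. BAX forms the pore in the mitochondrial outer membrane. Bax was at 48.3, 40.1 and 37.7 CPM in Lgmn+/+-IR and at 33.7, 42.7 and 31.8 CPM in Lgmn-/--IR, so the groups overlapped through Lgmn-/--IR replicate 2 (log2 fold change -0.22, 95% CI -0.57 to 0.13, adjusted p = 0.481). BBC3, better known as PUMA, is a BH3-only protein that frees BAX. Bbc3 was at 14.1, 14.7 and 12.6 CPM and at 12.6, 14.5 and 13.7 CPM in the same order, with a log2 fold change of -0.02 (95% CI -0.29 to 0.25, adjusted p = 0.942).

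The stress members were Sesn2 and Gdf15. Sestrin 2 senses leucine and restrains mTORC1, and Sesn2 was counted at 27.7, 26.1 and 27.6 CPM in Lgmn+/+-IR and at 22.5, 24.0 and 28.3 CPM in Lgmn-/--IR. Replicates 1 and 2 of Lgmn-/--IR were below and replicate 3 was above all Lgmn+/+-IR libraries (log2 fold change -0.12, 95% CI -0.39 to 0.14, adjusted p = 0.606). Gdf15 was covered by 26, 28 and 32 reads in Lgmn+/+-IR against 18, 26 and 25 reads in Lgmn-/--IR, which is 0.609, 0.654 and 0.704 CPM against 0.405, 0.560 and 0.570 CPM. The CPM did not overlap, and the interval was the widest of the members (log2 fold change -0.36, 95% CI -1.01 to 0.30, adjusted p = 0.538).

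**Figure D2:**
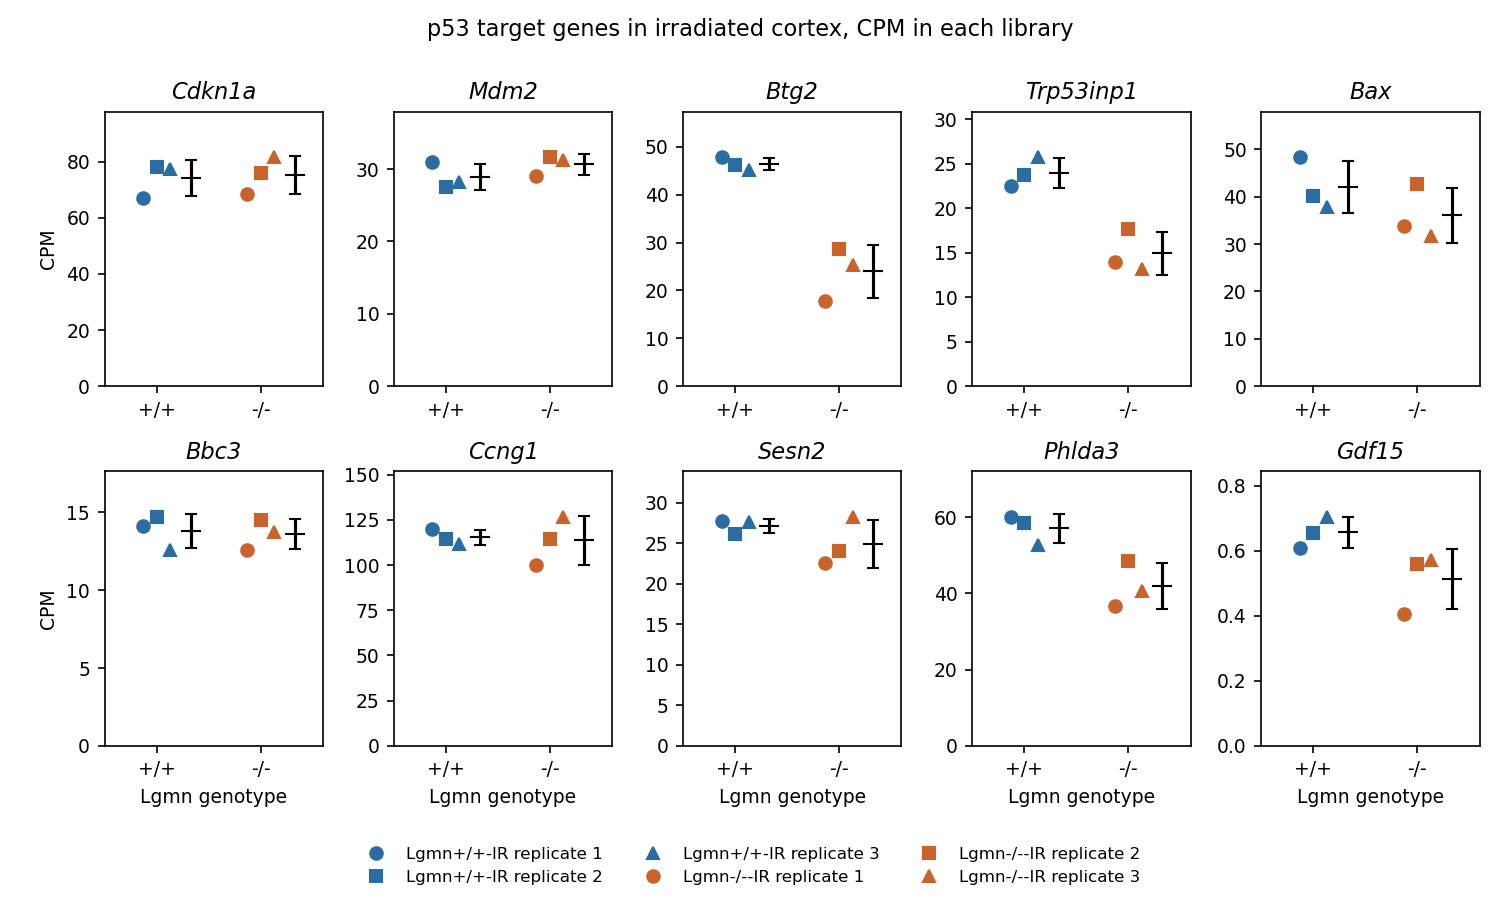
CPM of the 10 p53 target genes, 1 panel per gene with its own axis from 0, 1 point per library by Lgmn genotype, and the mean with SD (n = 3) beside each group. In Btg2, Trp53inp1, Phlda3 and Gdf15 every Lgmn-/--IR point lies below every Lgmn+/+-IR point, and in the other 6 panels the groups overlap.

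Over the 10 members the median log2 fold change was -0.17, beside -0.01 over all genes tested, with 8 members negative and 2 positive. At an unadjusted p under 0.05, 3 of 10 members (Btg2, Trp53inp1 and Phlda3) were lower and 0 were higher, where 18.6% of all genes passed in either direction and 9.34% as lower. In 4 of 10 members all Lgmn-/--IR libraries were below all Lgmn+/+-IR libraries by CPM, which was so for 13.3% of all genes, and the reverse held for 0 of 10 members and 12.4% of all genes. The summed CPM of the members was 439, 430 and 420 in Lgmn+/+-IR, as against 335, 398 and 393 in Lgmn-/--IR. Lgmn-/--IR replicate 1 was the lowest library of its group for 8 of the 10 members and replicate 2 was the highest for 6 of them.

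**Figure D3:**
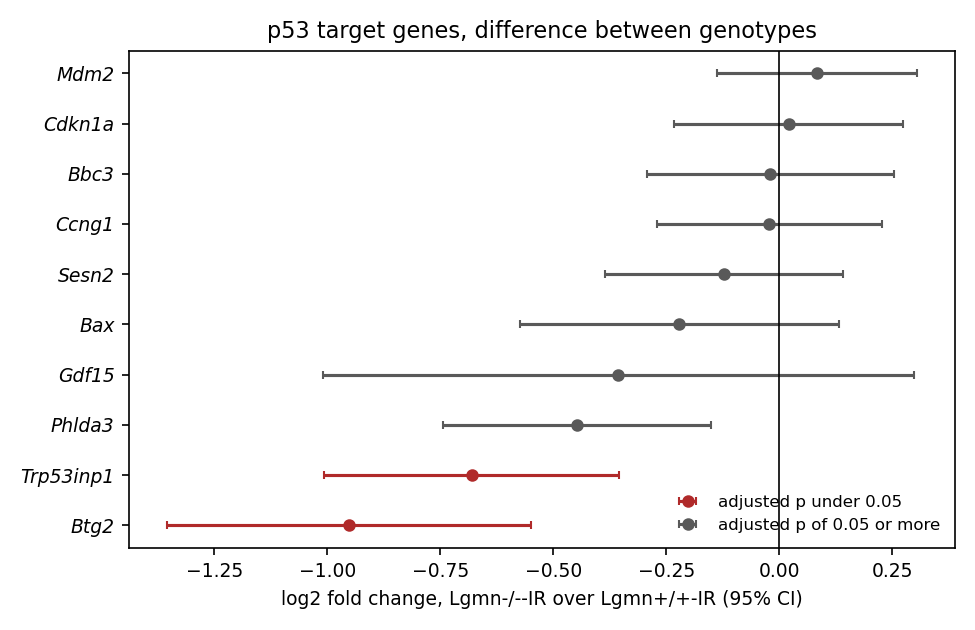
Log2 fold change (Lgmn-/--IR over Lgmn+/+-IR) of each member with its 95% CI, in red where the adjusted p was under 0.05. Btg2 at -0.95 and Trp53inp1 at -0.68 are in red, Phlda3 at -0.45 has an interval below 0 but is grey, and Cdkn1a, Mdm2, Bbc3 and Ccng1 are within 0.1 of 0.

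Oligodendrocyte markers were also lower in Lgmn-/--IR, where all libraries lay below all Lgmn+/+-IR libraries for 13.3% of all genes. The 6 markers (Mbp, Mog, Mag, Mobp, Cnp and Cldn11), none at 0 in any library, summed to 2654, 2699 and 2215 CPM in Lgmn+/+-IR and to 1511, 1546 and 1530 CPM in Lgmn-/--IR. Of these, 5 of 6 were lower at an adjusted p under 0.05, all but Mbp, beside 1.68% of all genes. As a share of the Lgmn+/+-IR mean, the sum was 59.9%, 61.3% and 60.6% in Lgmn-/--IR replicates 1, 2 and 3. Btg2 was at 38.5%, 61.7% and 54.7%, Trp53inp1 at 58.2%, 73.9% and 55.0%, and Phlda3 at 64.2%, 84.9% and 71.0% in the same libraries. In bulk RNA, fewer cells of a type and less RNA per cell cannot be told apart, and the part of the oligodendrocyte signal in the 3 p53 targets was not tested. Astrocyte markers summed to 1627 to 1801 CPM in Lgmn+/+-IR and to 2007 to 2202 CPM in Lgmn-/--IR, with 1 of 6 (Aqp4) higher by adjusted p, 4 of 6 higher at an unadjusted p under 0.05 and 5 of 6 without overlap between genotypes, all higher in Lgmn-/--IR. Of all 18345 genes tested, 1.65% were called higher and 12.4% were higher without overlap. An unadjusted p under 0.05 was passed by 1699 genes as higher and by 18.6% in either direction. The 8 microglial markers, of which Itgam had a library at 0, summed to 229 to 258 and 195 to 218 CPM, with 0 of 8 passing the adjusted p in edgeR's test and 2 of 8 an unadjusted p under 0.05. Of the remaining marker lists, 0 of 9 neuronal, 0 of 5 oligodendrocyte precursor, 0 of 6 endothelial, 0 of 6 dividing cell and 0 of 7 striatal or choroid plexus genes passed the adjusted p in edgeR's test (1, 0, 1, 0 and 0 at an unadjusted p under 0.05), and 1 of the 3 leukocyte genes tested, Ly6c2, was lower (log2 fold change -3.31, adjusted p = 0.00152). The striatal sum was 966 CPM in Lgmn-/--IR replicate 1, where Btg2 was at 17.9 CPM. It was 929 CPM in Lgmn+/+-IR replicate 3, where Btg2 was at 45.1 CPM. With that sum as a covariate, chosen after seeing the data, the log2 fold change of Btg2 was -1.10 (adjusted p = 0.0102), and Trp53inp1 did not pass. The part of dissection in these differences was not tested. Without Lgmn-/--IR replicates 1 and 2, the libraries highest in hemoglobin, the log2 fold change of Btg2 was -0.86 and that of Trp53inp1 -0.85, with a lone Lgmn-/--IR library that is assumed to vary like the others.

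**Figure D4:**
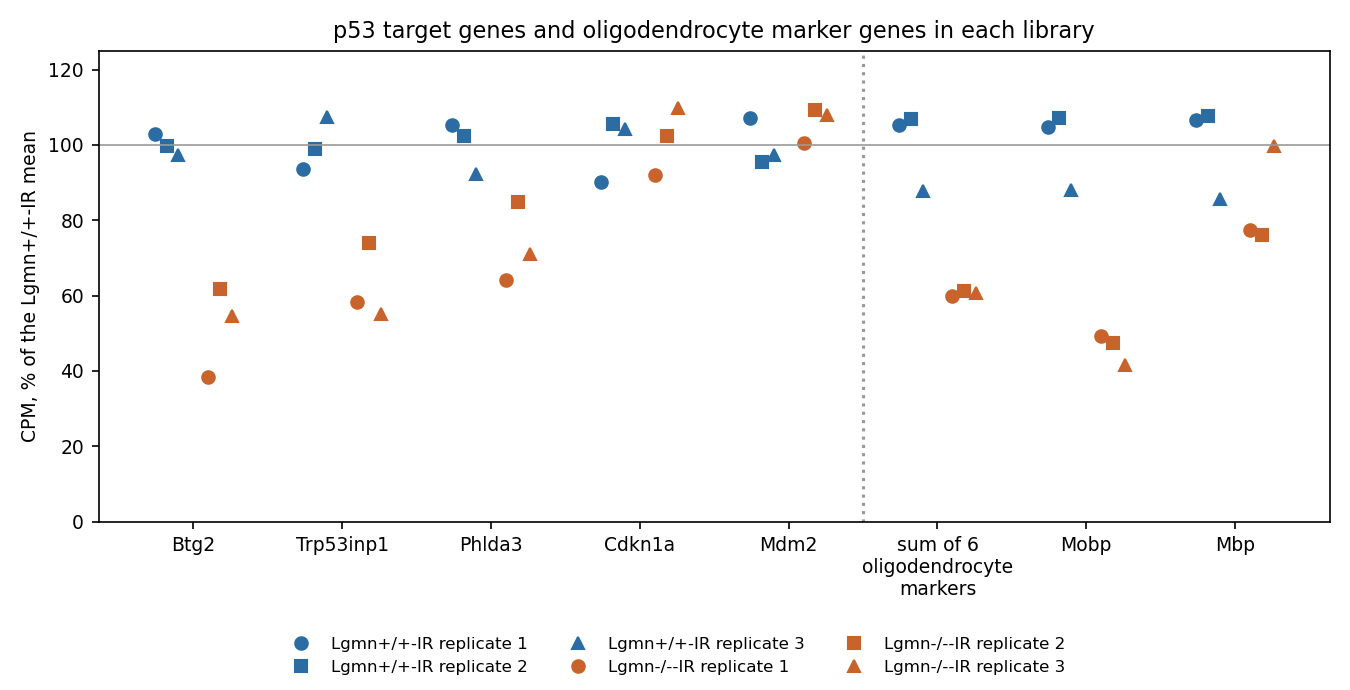
CPM in each library as a percentage of the Lgmn+/+-IR mean, for 5 p53 targets and, right of the dotted line, the sum of 6 oligodendrocyte markers, Mobp and Mbp. The Lgmn-/--IR points of the marker sum (59.9 to 61.3%) lie within the wider ranges of Btg2 (38.5 to 61.7%) and Trp53inp1 (55.0 to 73.9%). They lie below those of Phlda3 (64.2 to 84.9%), and the points of Cdkn1a and Mdm2 lie around 100%.

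The list of 32 other p53 targets, all of which passed the filter on low counts, had 2 called higher and 1 called lower, beside 1.65% and 1.68% of all genes, and a median log2 fold change of -0.07. Pmaip1, which encodes NOXA, a BH3-only protein that neutralises MCL1, was at 2.11, 1.75 and 1.52 CPM in Lgmn+/+-IR and at 6.98, 6.23 and 5.76 CPM in Lgmn-/--IR. Its groups were far apart, and counts were 69 to 90 against 253 to 310 per library. The log2 fold change was 1.82 (SE 0.18, 95% CI 1.39 to 2.25, adjusted p = 0.00327), and the call held in 17 of 18 alternatives and was lost without Lgmn-/--IR replicates 1 and 2 (adjusted p = 0.0645). Bbc3 and Bax, which act on the same mitochondrial route, did not pass the test.

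Steap3, an endosomal ferrireductase that takes part in iron uptake and is strongly expressed in erythroid cells, was at 5.02, 4.998 and 5.74 CPM in Lgmn+/+-IR and at 9.57, 7.91 and 9.82 CPM in Lgmn-/--IR. All Lgmn-/--IR libraries were above all Lgmn+/+-IR libraries (log2 fold change 0.79, SE 0.14, adjusted p = 0.0325). The blood gene sum was also higher in Lgmn-/--IR, and the part of blood in the Steap3 counts was not tested. Leaving out Lgmn+/+-IR replicate 1, 2 or 3 or Lgmn-/--IR replicate 1 or 3 gave adjusted p = 0.0956, 0.152, 0.0837, 0.0983 and 0.107. Xpc, the damage sensor of global nucleotide excision repair, was at 22.5, 22.5 and 25.4 CPM in Lgmn+/+-IR and at 16.3, 16.8 and 17.3 CPM in Lgmn-/--IR. Its groups were apart and tight (log2 fold change -0.48, SE 0.10, adjusted p = 0.0493), and it lost the call on leaving out Lgmn+/+-IR replicates 1, 2 and 3 (0.104, 0.157 and 0.168) and Lgmn-/--IR replicates 1, 2 and 3 (0.148, 0.0860 and 0.118). Among the genes of this list that did not pass, the largest difference was in Dram1, a lysosomal membrane protein of autophagy, with a log2 fold change of 0.80 (adjusted p = 0.260) at 0.616 to 1.87 CPM.

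**Figure D5:**
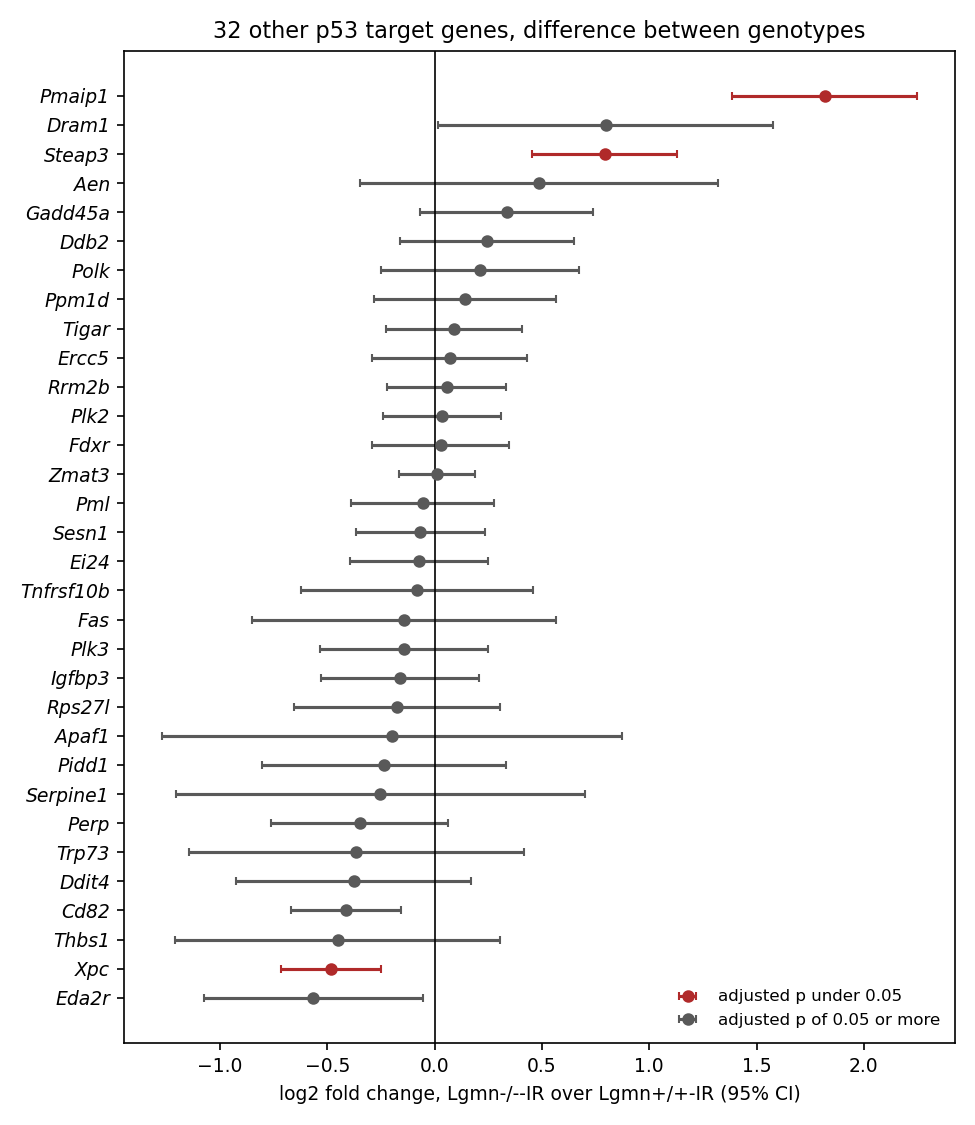
Log2 fold change (Lgmn-/--IR over Lgmn+/+-IR) with 95% CI of the 32 other p53 target genes, ordered by size, in red where the adjusted p was under 0.05. Pmaip1 at 1.82 stands right of all others, Steap3 and Xpc are also in red, and most intervals cross 0.

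Upstream of the members, 0 of 21 tested regulators of p53 passed the adjusted p in edgeR's test. At an unadjusted p under 0.05, 3 passed, beside 18.6% of all genes. DESeq2 called 1 of them, among 1308 genes over all. Trp53 itself, which encodes p53, was at 20.2, 18.1 and 21.6 CPM in Lgmn+/+-IR and at 23.3, 19.1 and 23.8 CPM in Lgmn-/--IR, and the groups overlapped (log2 fold change 0.14, adjusted p = 0.592). Mdm4, the partner of MDM2 that masks the activation domain of p53, overlapped too, at 41.7 to 52.5 and 35.7 to 49.7 CPM (log2 fold change -0.15, adjusted p = 0.644). Ppp1r13l, which encodes iASPP, an inhibitor of p53 at apoptotic targets, was the gene called by DESeq2. It was at 4.29, 4.11 and 4.73 CPM in Lgmn+/+-IR and 6.42, 6.53 and 7.25 CPM in Lgmn-/--IR, without overlap (log2 fold change 0.62, edgeR adjusted p = 0.0606). The kinase genes Chek1 and Atr had log2 fold changes of -0.45 (adjusted p = 0.589) and -0.39 (adjusted p = 0.147), and the deubiquitinase gene Usp10 0.45 (adjusted p = 0.172). Cdkn2a, which encodes p16 and ARF, had 0 to 12 counts per library and was not tested.

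In the BCL-2 and caspase list, 2 of 22 tested genes were called, both higher, beside 1.65% of all genes called higher. They were Pmaip1, which this list shares, and Bcl2, the prototype survival protein. Bcl2 was at 18.4, 18.7 and 19.8 CPM in Lgmn+/+-IR and at 26.4, 26.3 and 26.3 CPM in Lgmn-/--IR, without overlap and with a very small spread in Lgmn-/--IR (log2 fold change 0.48, SE 0.09, adjusted p = 0.0343). Its call was lost without each of Lgmn+/+-IR replicates 1, 2 and 3 (adjusted p = 0.0980, 0.173 and 0.104) and each of Lgmn-/--IR replicates 1, 2 and 3 (0.114, 0.0655 and 0.0980). Xiap, an inhibitor of caspases, was at 19.7 to 27.1 CPM in Lgmn+/+-IR and at 80.4, 72.2 and 21.7 CPM in Lgmn-/--IR. Its Lgmn-/--IR replicate 3 lay among the Lgmn+/+-IR libraries, and the log2 fold change of 1.38 did not pass (adjusted p = 0.161). Without that library, which lay apart from its group, it was 1.77 (adjusted p = 0.00901), the 1 alternative of 18 in which Xiap passed. Without Lgmn-/--IR replicates 1 and 2 it was -0.03. Casp9, the initiator caspase of the mitochondrial route, was at 49.97, 31.6 and 45.9 CPM in Lgmn+/+-IR and at 25.2, 26.4 and 10.3 CPM in Lgmn-/--IR (log2 fold change -1.04, edgeR adjusted p = 0.184, DESeq2 adjusted p = 0.0285).

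Among 21 tested partners of arrest (other CDK inhibitors, cyclins, CDKs, pocket proteins and E2F factors), 0 passed the adjusted p in edgeR's test and DESeq2 called 0. At an unadjusted p under 0.05, 2 passed, beside 18.6% of all genes. The largest differences were in Ccnd3, a D-type cyclin (log2 fold change 0.72, adjusted p = 0.477), E2f4, a repressive E2F (0.49, adjusted p = 0.181), Cdkn2b, which encodes p15 (-0.48, adjusted p = 0.502), and Rb1, the retinoblastoma protein (0.41, adjusted p = 0.114). Of 12 tested relatives of the members, 0 passed in edgeR's test or DESeq2 and 0 at an unadjusted p under 0.05. Sesn3, the sestrin that FOXO factors induce, had the widest spread, at 121, 161 and 186 CPM in Lgmn+/+-IR and at 21.5, 15.0 and 153 CPM in Lgmn-/--IR (log2 fold change -1.31, adjusted p = 0.442). Its replicates 1 and 2 of Lgmn-/--IR were low and replicate 3 was within the Lgmn+/+-IR range. Without that library, which lay apart from its group, the log2 fold change of Sesn3 was -3.09 (adjusted p = 0.00509). That was the 1 alternative of 18 in which Sesn3 passed, and its log2 fold change ran up to -0.02 in the others. Btg1, Trp53inp2 and Cdkn1b, the nearest relatives of Btg2, Trp53inp1 and Cdkn1a, had log2 fold changes of 0.19, -0.18 and 0.18 (adjusted p = 0.570, 0.343 and 0.524).

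Btg2 is also induced by neuronal activity, and Sesn2, Gdf15 and Bbc3 by the integrated stress response through ATF4 and CHOP, so both programs were counted. Of 24 immediate early genes, 0 passed the adjusted p in edgeR's test. At an unadjusted p under 0.05, 4 passed, all higher in Lgmn-/--IR. Of all 18345 genes tested, 1699 passed it as higher, and 18.6% in either direction. DESeq2 called 2, Egr3 and Fosb, among the 1308 genes it called over all. Egr3, a zinc finger factor, was at 47.1, 60.0 and 59.9 CPM in Lgmn+/+-IR and at 94.9, 86.8 and 191 CPM in Lgmn-/--IR (log2 fold change 1.16, edgeR adjusted p = 0.0990), and without Lgmn-/--IR replicates 1 and 2 the log2 fold change was 1.78 (adjusted p = 0.0245). Nr4a3, Fosb and Fosl2 had log2 fold changes of 1.10, 0.85 and 0.71 (adjusted p = 0.256, 0.103 and 0.269). Of the 24 genes 13 were positive and 11 negative, with a median log2 fold change of 0.08. Ier2, Egr2 and Fos, named after their values were seen, had log2 fold changes of -0.60, -0.53 and -0.42 (adjusted p = 0.318, 0.505 and 0.355). Of 17 genes of the integrated stress response, 0 passed in edgeR's test. At an unadjusted p under 0.05, 6 passed (4 higher, 2 lower), beside the same 18.6% of all genes. DESeq2 called 1, Slc7a11, the cystine importer, at 23.3 to 26.2 CPM in Lgmn+/+-IR and 65.1, 72.0 and 30.6 CPM in Lgmn-/--IR (log2 fold change 1.16, edgeR adjusted p = 0.0906). Without Lgmn-/--IR replicate 3, which lay apart from its group, the log2 fold change of Slc7a11 was 1.46 (adjusted p = 0.00333). Slc7a11 passed in 2 of 18 alternatives, with log2 fold changes from 0.30 to 1.46. Nupr1, Atf3 and Phgdh had log2 fold changes of 0.68, 0.63 and 0.58 (adjusted p = 0.219, 0.538 and 0.161).

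The genes whose profile over the 6 libraries was most like that of a called member were ranked by the root mean square difference of centred log2 CPM, as a description over samples that share both groups. For Btg2 they were Tmem125 (0.063 log2 units), Slc26a7 (0.066), Col8a2 (0.070), Gtse1 (0.11) and 2810403D21Rik (0.11). For Trp53inp1 they were Gm10340 (0.037), Tmem268 (0.058), Epm2a (0.064), Def8 (0.068) and Tet1 (0.070). Among the members, Trp53inp1 was nearest to Btg2, at 0.24 log2 units and position 142 among all tested genes, and Phlda3 was nearest to Trp53inp1, at 0.18 and position 275.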

How the data were processed

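Cortical polyA RNA libraries (VAHTS mRNA-seq V2 kit, DNBSEQ-T7) of 3 Lgmn+/+-IR and 3 Lgmn-/--IR mice were grouped by their labels. The authors filtered reads with Trimmomatic (0.36 in the submitters' processing notes, which name GRCm38), aligned them by HISAT2 and took expression values from StringTie. The read counter, annotation and use of strand are not given in the sources used here. The deposited counts are whole reads per gene, not normalized, and the deposited FPKM are scaled for transcript length and library size. Reads carried no molecular identifiers, so a read is not an independent molecule. The SE and 95% CI come from the fit and cover the spread between libraries.

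Counts were tested with edgeR 4.0.16 in R 4.3.3 (TMM, filterByExpr by genotype, quasi-likelihood F-test, genotype as the only factor, Benjamini-Hochberg over 18345 genes). On simulated data, edgeR called 4.26% of 1.5-fold, 46% of 2-fold and 85.1% of 4-fold changes. DESeq2 called 21.3%, 70% and 91.5% of the same changes. Genes simulated without a change made up 11.9% of edgeR's calls and 30.1% of DESeq2's. A gene that did not pass is thus not shown to be unchanged. The study's methods name limma, whose model on log2(FPKM + 1) and log2(FPKM + 0.1) is an alternative here because the counts are raw. FPKM folds on that scale understate low genes. CPM use TMM-scaled library sizes. SE were computed from the F statistic. The other alternatives were DESeq2 1.42.0, limma-voom (limma 3.58.1), RLE or no scaling factors, removal of hemoglobin genes, no count filter or a mean CPM of at least 1, the replicate number as a block, and omission of each library. Omission of the 2 libraries highest in hemoglobin genes and a striatal marker covariate were chosen after seeing the data. No exact test of 3 against 3 can go below p = 0.1, so single values were not tested that way.

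The members, lists and markers were chosen with earlier results of these data known. Named genes are all members, Lgmn, Trp53 and Mdm4, of each other list the called genes filled up to 4 names by absolute log2 fold change, and for each called member the 5 tested genes with the nearest profile. Marker genes, Cdkn2a and Ly6c2 were named outside this rule after their values were seen. Of the gene IDs, 51633 of 51826 were found in GENCODE M21. A further gene is not reported here. Copies were sought with BLAST 2.17.0+. Promoters are from RefSeq (GRCm38.p6, 27025 genes). Between libraries of 1 genotype the mean chi-square over genes was 26.7 to 94.9, and each was counted as a sample.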

Additional observations from a re-analysis of the deposited data

How the results depend on the processing

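Over 18 alternatives Btg2 stayed lower and passed the threshold in 11, Trp53inp1 stayed lower and passed in 4, Phlda3, Bax and, in the 17 that gave it a value, Gdf15 stayed lower and passed in 0, and Pmaip1 stayed higher and passed in 17. Steap3, Xpc and Bcl2 kept their direction and passed in 10, 4 and 5. The 611 genes called over all became 1308 with DESeq2, 404 with no filter on low counts, 283 without the 2 libraries highest in hemoglobin genes, and 223 to 500 on leaving 1 library out. The 2 members called became 1 (Btg2) with limma on FPKM (both pseudocounts), RLE factors, library totals only, a mean CPM of at least 1 or the striatal covariate, 0 with no filter or without the 2 hemoglobin libraries, and 0 to 2 on leaving 1 library out. The 3 other p53 targets became 1 with no filter, 0 without the 2 hemoglobin libraries, and 1 to 3 on leaving 1 library out. The 2 BCL-2 and caspase genes became 1 with limma on FPKM, library totals only, no filter or the striatal covariate, 0 without the 2 hemoglobin libraries, and 1 to 2 on leaving 1 library out. From 0, the regulators became 1 with DESeq2, the immediate early genes 2 with DESeq2 and 1 without the 2 hemoglobin libraries or with the striatal covariate, the integrated stress genes 1 with DESeq2 and 0 to 1 on leaving 1 library out, and the relatives of the members 0 to 1. The cause of these changes was not tested.

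Signs changed for some differences that did not pass the test. With limma on FPKM at pseudocounts of 1 and 0.1, Cdkn1a became -0.0414 and -0.0424 and Mdm2 -0.0760 and -0.0813, and with library totals only Cdkn1a became -0.0184. Without the 2 hemoglobin libraries Ccng1 was 0.142, Sesn2 0.0667 and Xiap -0.0297. On leaving 1 library out, Cdkn1a ran from -0.0402 to 0.0866 (below 0 without Lgmn+/+-IR replicate 1 or Lgmn-/--IR replicate 3), Bbc3 from -0.0818 to 0.0339 (above 0 without Lgmn+/+-IR replicate 1 or 2 or Lgmn-/--IR replicate 1) and Ccng1 from -0.106 to 0.0638 (above 0 without replicate 1 of either genotype).

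Same-numbered libraries are different mice, and their deviations from the group means correlated at -0.252, -0.0464 and -0.0276, with 0 of 6 libraries closest to their own number, so the numbers were not taken as pairs. With the replicate block 150 genes were called (81 higher, 69 lower), 0 members, 1 other p53 target and 1 BCL-2 family gene, both Pmaip1. Under it the log2 fold changes were -0.98 for Btg2 (adjusted p = 0.107) and -0.69 for Trp53inp1 (adjusted p = 0.145).

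Of the members, Gdf15 had the fewest counts, 18 to 32 per library, and the largest SE.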
